A study of Brassica rapa subsp. pekinensis with 6 samples.

Results

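SOC1 and FT are floral integrators, the genes on which the signals that decide when a plant flowers converge. The genes described here are 3 identifiers listed as *B. rapa* *SOC1* copies (Bra004928, Bra000393 and Bra039324) and 2 listed as *FT* copies (Bra022475 and Bra004117), 5 of the 41173 genes of the Br135K microarray. They were chosen by identifier, with earlier results of these data known. The deposited table and the RefSeq gene table used here give no name for these 5 identifiers, and no sequence was compared, so the names *SOC1* and *FT* rest on that list. In *Arabidopsis*, *FT* encodes a small mobile protein that is made in leaves under inductive conditions and moves to the shoot apex. *SOC1* encodes a MADS-box transcription factor that acts downstream of *FT* at the apex, and the repressor *FLC* lowers the transcription of both genes until a long cold period silences it. Day length reaches *FT* mainly through CONSTANS, and warmth reaches it in part through phytochrome B and PIF4.

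The samples came from 2 inbred lines of Chinese cabbage, Chiifu and Kenshin, for which the labels name no introduced gene and no treatment beyond temperature. All plants spent about 3 weeks at 22 °C with 16 h of light and 8 h of darkness a day. The control sample of each line was taken then, a further sample after 2 days at 12 °C, and the last after 2 days at 12 °C followed by 3 h at 28 °C. Each of these 6 combinations had 1 sample. By the study's text shoots of several plants were taken and the array values are means of repeated experiments, so each value stands as the authors' mean, with no spread between repeats analysed here. The hour of sampling is not given in the sources used here. In whole shoots, fewer cells that express a gene and less RNA per cell cannot be told apart.

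The warming ratio divides the value at 28 °C by that at 12 °C, the minor warming ratio divides 28 by 22 °C, and the low temperature (LT) ratio divides 12 by 22 °C. A value before the cold is the 22 °C sample, one in the cold the 12 °C sample and one after warming the 28 °C sample. The probe intensity (PI) is the linear value the authors derived for each gene from several probes placed towards its 3′ end, whose design used the Chiifu sequence. The sequence of Kenshin under these probes was not analysed here, nor was binding of a probe to RNA of another copy, and PI levels are compared between samples and not between genes. A gene was called detected where any of its 6 PI values exceeded 500, which held for 26948 genes. By this limit 4 of the 5 copies were detected, all of them with a PI over 500 in each of the 6 samples. The *SOC1* copy Bra000393 was never above 381.

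The PI of the control feature with random sequence was 26.9 to 30.5 over the 6 samples. The array values also include 14 features for foreign marker sequence, with a PI from 9.70 to 1517 and a median per sample of 243 to 361. All 14 are named for GFP and Bar, in pairs whose names differ by the ending AS. They thus do not stand for 14 separate genes. In each sample the highest of these features reached at least 726, so the detection limit of 500 does not exclude signal of this kind. Of the 14 marker features, 9 were highest in Chiifu at 28 °C, where their median ratio to Chiifu at 22 °C was 1.76 and 13 of 14 were above 1. The median log2 ratio of the detected genes lay between -0.02 and 0.06 in all 9 ratios between samples. For the other ratios that use this sample, their median was 1.54 by warming in Chiifu, with 13 of 14 above 1, and 0.792 for Kenshin over Chiifu at 28 °C, with 2 of 14 above 1. Their part in any ratio of the genes was not tested.

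The *SOC1* copy Bra004928 had its highest PI at 12 °C and its lowest at 28 °C in both lines. In Chiifu its PI was 1376 before the cold, 1932.5 in the cold and 719 after warming. In Kenshin it was 1164 before the cold, 3691 in the cold and 929 after warming. Both 12 °C samples lay above all 4 others, and both 28 °C samples lay below them, so that the temperatures did not overlap between the lines. The LT ratio was 1.40 for Chiifu and 3.17 for Kenshin, and 2.27% of the detected genes had a ratio as high in Kenshin. The warming ratio was 0.372 for Chiifu and 0.252 for Kenshin, at least a 2-fold decrease in both, which 3.22% of the detected genes showed. Within 3 h at 28 °C the PI was thus below that at 22 °C, with a minor warming ratio of 0.522 for Chiifu and 0.798 for Kenshin. Neither ratio reached 2-fold, and 9.35% of the detected genes had one as low in Chiifu and 24.8% in Kenshin.

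The *SOC1* copy Bra039324 followed the same order of temperatures. Its PI in Chiifu was 4770.4 before the cold, 6479 in the cold and 4068 after warming. Its PI in Kenshin was 4473 before the cold, 6656 in the cold and 2192 after warming. The lines nearly coincided at 22 and 12 °C, and separated at 28 °C, where Kenshin was 0.539 times Chiifu and the marker features had a median of 0.792. The LT ratio was 1.36 for Chiifu and 1.49 for Kenshin, under 2-fold in both. The warming ratio was 0.628 for Chiifu and 0.329 for Kenshin, and the minor warming ratio was 0.853 and 0.490. The 2-fold limit was thus passed by warming and minor warming in Kenshin and in no comparison of Chiifu, where 74.8% of the detected genes likewise passed in none. The order 12 over 22 over 28 °C in both lines was found for both detected *SOC1* copies and for 5.57% of the detected genes, and a maximum at 12 °C in both lines for 15.4%.

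**Figure D1:**
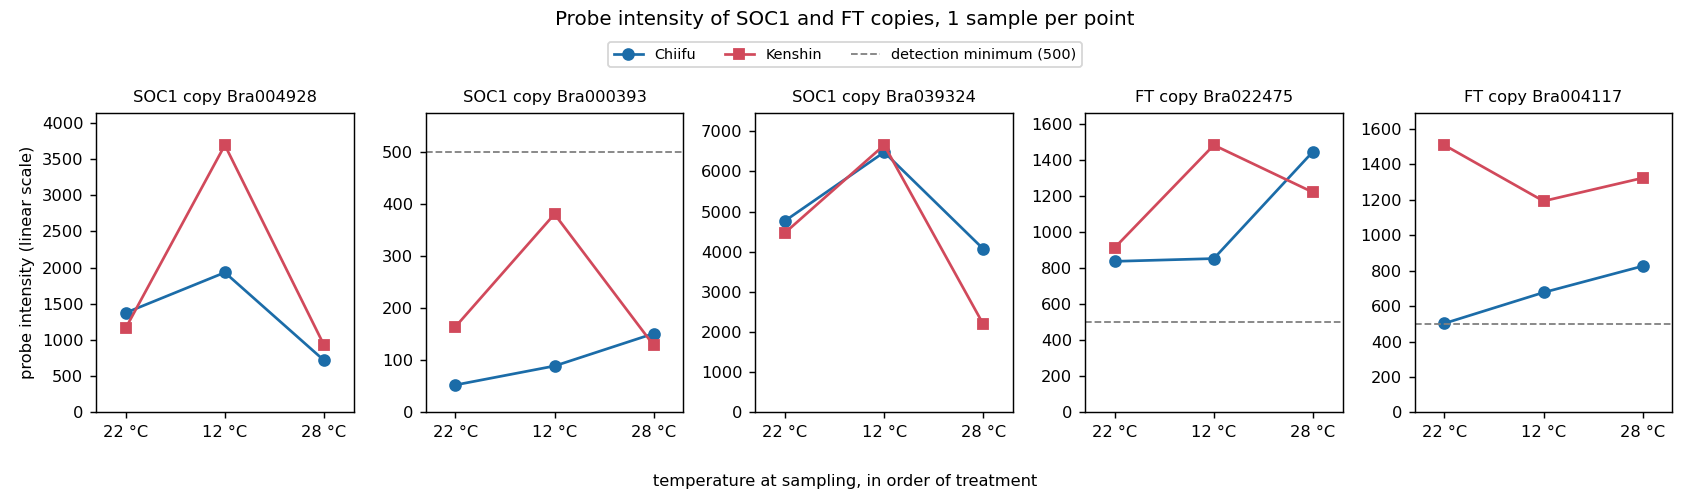
Probe intensity (linear scale, from 0) of each SOC1 and FT copy at 22, 12 and 28 °C in the order of treatment, with 1 sample per point, Chiifu as circles and Kenshin as squares, and the detection minimum of 500 as a dashed line where the range allows. The detected SOC1 copies peak at 12 °C in both lines, Bra000393 stays under 500, and the FT copy Bra004117 is higher in all Kenshin samples (1193 to 1509) than in all Chiifu samples (503 to 826).

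The third *SOC1* copy, Bra000393, stayed below the detection limit in all samples, although each of its values was at least 1.95 times that of the random control feature. It lay above the median PI of the marker features only in Kenshin at 12 °C (381 against 314). Its PI in Chiifu was 52.8 before the cold, 89.2 in the cold and 151 after warming. Its PI in Kenshin was 164 before the cold, 381 in the cold and 129 after warming. In Kenshin the copy thus had the same peak at 12 °C as the other *SOC1* copies, whereas in Chiifu the 28 °C sample was the highest. The warming ratio was 1.70 for Chiifu and 0.338 for Kenshin, and 1.45 and 0.415 with 50 added to each PI, which dampens ratios of low values. The minor warming ratio in Chiifu was 2.87, but 1.96 with 50 added, so that it no longer reached 2-fold. The LT ratio was 1.69 for Chiifu and 2.32 for Kenshin, and 1.35 and 2.01 with 50 added. For scale, 5.69% of the detected genes were at least 2-fold higher by minor warming in Chiifu, 4.86% with 50 added, and with 50 added 5.82% were at least 2-fold lower by warming and 5.11% higher by LT in Kenshin. The warming and minor warming ratios of Chiifu rest on the sample in which 13 of the 14 marker features had warming ratios above 1 and 13 had minor warming ratios above 1, with medians of 1.54 and 1.76.

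The *FT* copies did not share this pattern, and neither changed 2-fold between temperatures in either line. Bra022475 had a PI in Chiifu of 839.6 before the cold, 855 in the cold and 1449.6 after warming. In Kenshin its PI was 915 before the cold, 1485 in the cold and 1223 after warming. The lines started at nearly the same PI and reached nearly the same maximum, Kenshin at 12 °C and Chiifu at 28 °C. The LT ratio was 1.02 for Chiifu and 1.62 for Kenshin, and the warming ratio was 1.70 for Chiifu and 0.823 for Kenshin. A warming ratio above 1 in Chiifu and below 1 in Kenshin was found for 18.8% of the detected genes.

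The *FT* copy Bra004117 differed mainly between the lines. Its PI in Chiifu was 503 before the cold, 677 in the cold and 826 after warming. In Kenshin its PI was 1509 before the cold, 1193 in the cold and 1323 after warming. In the same order, the highest marker feature reached 726, 823 and 1517 in Chiifu and 783, 1180 and 1116 in Kenshin. The copy thus lay below the highest marker feature in every Chiifu sample and above it in every Kenshin sample. It lay above the marker median in all samples. All 3 Kenshin samples lay above all 3 Chiifu samples, which held for 10.5% of the detected genes. The LT ratio was 1.35 for Chiifu and 0.791 for Kenshin, and the minor warming ratio was 1.64 for Chiifu and 0.877 for Kenshin. An LT ratio above 1 in Chiifu and below 1 in Kenshin was found for 16.6% of the detected genes. The order of the Chiifu samples, 28 over 12 over 22 °C, was the same in both *FT* copies and occurred in 16.8% of the detected genes. The undetected *SOC1* copy Bra000393 had it too, and for Bra022475 the 12 and 22 °C samples were nearly equal (LT ratio 1.02). The minor warming ratios in Chiifu, 1.73 for Bra022475 and 1.64 for Bra004117, were close to the median of 1.76 over the 14 marker features, which ranged from 0.941 to 2.24, whereas both detected *SOC1* copies had ratios below 1 there.

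**Figure D2:**
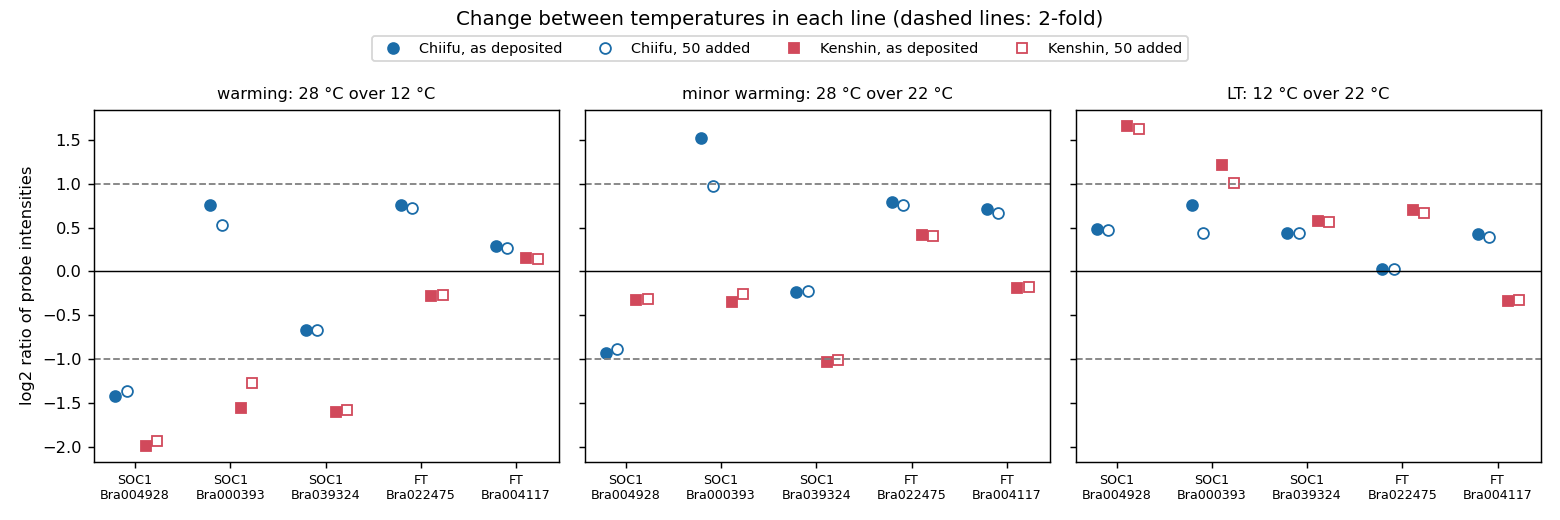
Log2 ratio of probe intensities between temperatures for each SOC1 and FT copy, in Chiifu (circles) and Kenshin (squares), as deposited (filled) and with 50 added to each intensity (open), with dashed lines at 2-fold. By warming the detected SOC1 copies lie below 0 in both lines, and adding 50 brings only the Chiifu minor warming ratio of Bra000393 across a 2-fold line (2.87 to 1.96).

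Counted over the 4 detected copies, 5 of 24 ratios between temperatures were at least 2-fold, beside 13.7% of such ratios over all detected genes. All 5 belonged to *SOC1* copies. Bra004928 passed by warming in Chiifu, where 10.2% of the detected genes were at least 2-fold lower, and by warming in Kenshin, where 6.52% were. It also passed by LT in Kenshin, where 5.8% were at least 2-fold higher. Bra039324 passed by warming and by minor warming in Kenshin, the latter beside 7.34% of the detected genes. In directions in which no detected copy passed, the shares of detected genes included 6.96% higher by warming in Chiifu and 7.26% in Kenshin, 6.27% higher by minor warming in Kenshin and 8.51% lower by minor warming in Chiifu. With counts this small, the share of the 4 copies is not read against the background.

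With 1 sample per line and temperature, no single ratio has a test. For a change common to Chiifu and Kenshin, limma was run on log2 PI with a term for the line, fitted over all 26948 detected genes with Benjamini-Hochberg adjustment. None of the 4 detected copies passed an adjusted p of 0.05 by warming, minor warming or LT. No gene of the whole table did so either (0%), while 18.4% of the genes had an unadjusted p under 0.05 by warming, 15.9% by minor warming and 12.7% by LT. With a trend of the prior variance on intensity, 460, 3 and 50 genes passed, none of them a *SOC1* or *FT* copy. For Bra004928 the shared log2 change was -1.71 by warming (standard error 0.33, unadjusted p = 0.00522, limma adjusted p = 0.131) and 1.08 by LT (standard error 0.33, limma adjusted p = 0.328). For Bra039324 it was -1.14 by warming (standard error 0.30, limma adjusted p = 0.183) and 0.51 by LT (limma adjusted p = 0.557). The *FT* copies had shared log2 changes of 0.24 (Bra022475) and 0.22 (Bra004117) by warming, each smaller than its standard error of 0.31 and 0.29. Without the Chiifu 28 °C sample the fitted values were -0.11 and -0.043, but the 28 °C level then rested on Kenshin alone. The fits thus neither show nor exclude a warming change shared by the lines for the *FT* copies. The warming ratio of Bra004117 was above 1 in both lines (1.22 for Chiifu and 1.11 for Kenshin), and that of Bra022475 in Chiifu only (1.70 against 0.823). The error of the main limma fit is the disagreement of the lines and not the spread of replicates, and the copy Bra000393 entered a fit only when no intensity minimum was set.

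Whether a response differed between the lines could not be tested. As a description, the LT ratio of Bra004928 was 2.26 times as large in Kenshin as in Chiifu, and that of Bra022475 1.59 times. The warming ratio was lower in Kenshin than in Chiifu for the 4 detected copies, beside 51.1% of the detected genes, and for Bra000393, with a quotient between 0.199 for Bra000393 and 0.909 for Bra004117. The median warming ratio of the marker features was also lower in Kenshin (0.962, range 0.715 to 5.65) than in Chiifu (1.54, range 0.676 to 1.94). The lines had ratios on opposite sides of 1 in 3 of 12 temperature comparisons of the detected copies, beside 36.1% over all detected genes. The denominators of LT are the control samples that minor warming also uses, and the 28 and 12 °C samples are likewise shared between comparisons, so these values are not independent of each other.

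Between the lines, the largest ratio of a detected copy was that of the *FT* copy Bra004117 at 22 °C, where Kenshin was 3.00 times Chiifu. The Chiifu value there was 503, just above the detection limit, and the ratio was 2.82 with 50 added. This was the single ratio of 12 that passed 2-fold in the detected copies, and 8.55% of the detected genes were at least 2-fold higher in Kenshin at 22 °C and 8.83% at least 2-fold lower. At 12 and 28 °C the ratio of Bra004117 was 1.76 and 1.60. At 12 °C 5.18% of the detected genes were at least 2-fold higher in Kenshin and 7.16% lower, and at 28 °C 10.3% were higher and 8.28% lower. Over the 3 temperatures the limma fit, with temperature as a block, gave a log2 difference of 1.03 (standard error 0.24, unadjusted p = 0.0102, adjusted p = 0.0966), with Kenshin higher at each of the 3 temperatures, as in 25.9% of the detected genes. This did not pass an adjusted p of 0.05, which 6.56% of the detected genes did in this contrast (21.5% at an unadjusted p under 0.05). The marker features were above 1 in Kenshin over Chiifu for 12 of 14 before the cold, 11 in the cold and 2 after warming, with median ratios of 1.18, 1.27 and 0.792.

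The other copies were close between the lines at 22 °C or changed order with temperature. Bra004928 was 0.846 times as high in Kenshin as in Chiifu before the cold, 1.91 times in the cold and 1.29 times after warming. For Bra022475 these ratios were 1.09, 1.74 and 0.844, an order of lines found for 11.2% of the detected genes. At 12 °C the ratio was thus 1.91 for Bra004928, 1.76 for Bra004117 and 1.74 for Bra022475, values that 5.83%, 7.36% and 7.67% of the detected genes reached, and 1.03 for Bra039324. The marker features had a median of 1.27 there, with 11 of 14 above 1. The log2 difference between the lines over all temperatures was 0.35 for Bra004928, 0.23 for Bra022475 and -0.32 for Bra039324, with limma adjusted p-values of 0.526, 0.673 and 0.530. Without the Chiifu 28 °C sample it was 0.46 for Bra022475 and -0.027 for Bra039324. The undetected copy Bra000393 was 3.11 times as high in Kenshin at 22 °C and 4.27 times at 12 °C, 2.09 and 3.09 times with 50 added, and 0.850 times at 28 °C. With 50 added, 7.83% of the detected genes were at least 2-fold higher in Kenshin at 22 °C and 4.55% at 12 °C. The Kenshin 12 °C sample was the highest of the 6 for 3 of the 4 detected copies, beside 17.5% of the detected genes, and for the undetected Bra000393.

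**Figure D3:**
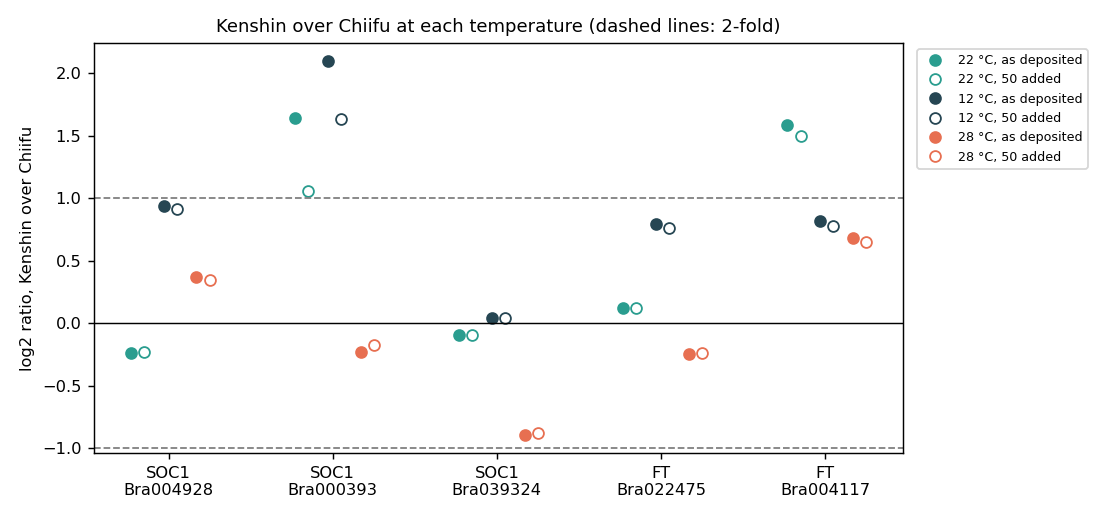
Log2 ratio of Kenshin over Chiifu at 22, 12 and 28 °C for each SOC1 and FT copy, as deposited (filled) and with 50 added (open), with dashed lines at 2-fold and 1 sample per line and temperature. Bra004117 lies above 0 at all 3 temperatures, Bra039324 near 0 at 22 and 12 °C and at 0.539 times at 28 °C, and Bra000393 above 2-fold at 22 and 12 °C only.

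Set beside all detected genes, the temperature ratios of both detected *SOC1* copies were farthest out by warming in Kenshin. There 1.87% of the detected genes had a ratio as low as that of Bra004928 and 2.98% one as low as that of Bra039324. In Chiifu these shares were 6.04% and 15.7%. Of the *FT* ratios, that of Bra004117 between the lines at 22 °C was farthest out, and 4.21% of the detected genes had one as high. For both *FT* copies the warming ratios in Kenshin were among the common ones, with 27.6% of the detected genes as low as Bra022475 and 38.3% as high as Bra004117.

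**Figure D4:**
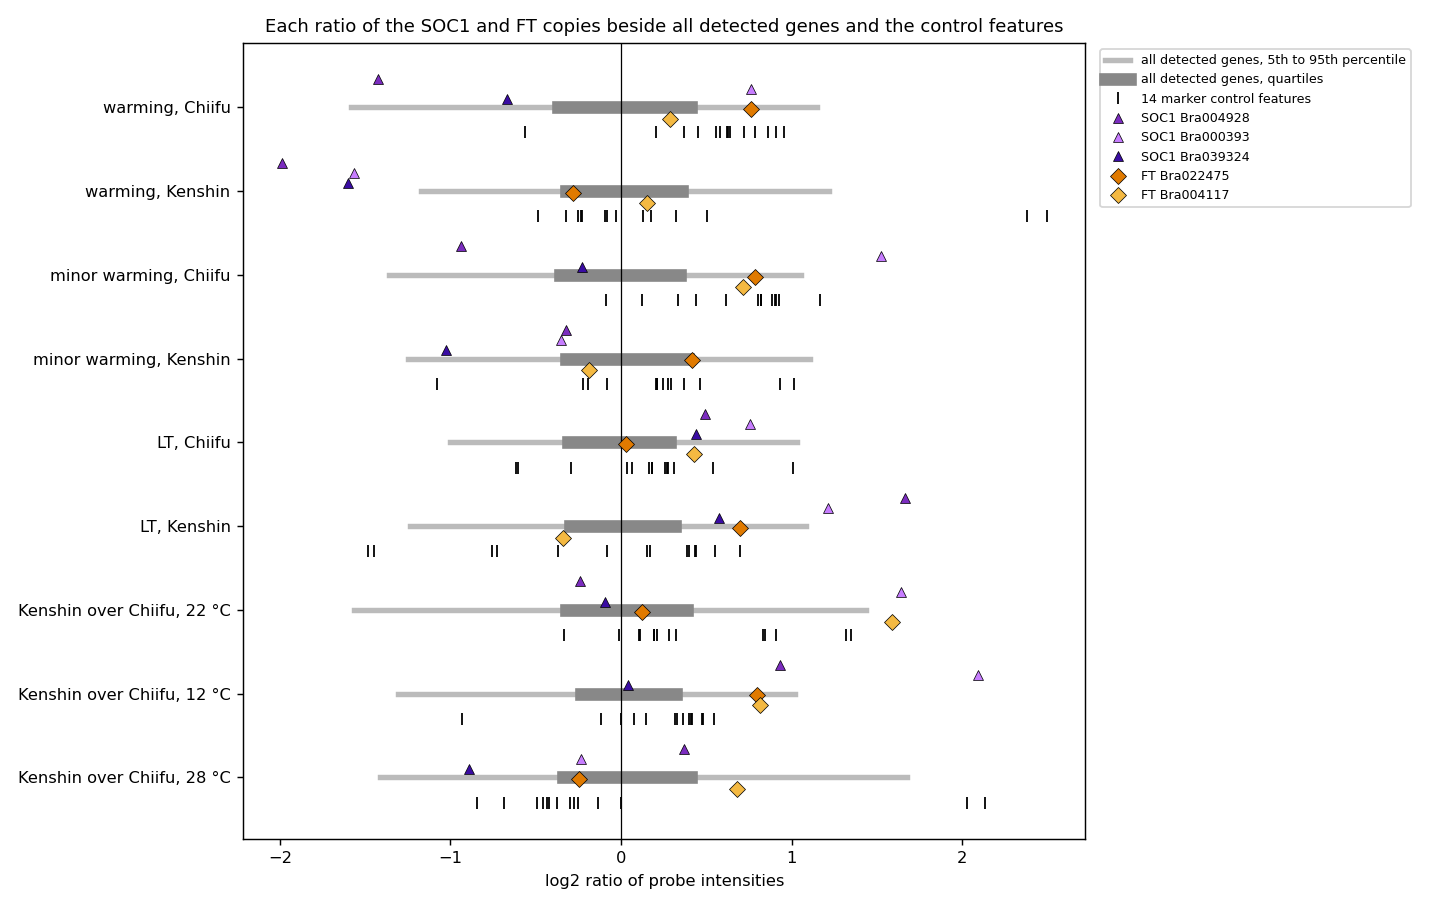
Log2 ratio of each SOC1 copy (triangles) and FT copy (diamonds) in the 9 ratios between samples, beside the 5th to 95th percentile (light bar) and quartiles (dark bar) of the 26948 detected genes and the 14 marker control features (ticks). The SOC1 copies lie left of the bars by warming in Kenshin. Most marker features lie right of 0 in both ratios with Chiifu 28 °C above the line, where their median ratios, not in log2, were 1.54 and 1.76.

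The copies also differed from each other in shape. Over the 6 samples, Pearson's r of log2(PI + 50) was 0.73 between the *SOC1* copies Bra004928 and Bra039324 and 0.41 between the *FT* copies. The *SOC1* copy Bra000393 had r = 0.75 with the *FT* copy Bra022475 and 0.21 with the *SOC1* copy Bra039324. These values describe 6 samples from 2 lines that share their treatments. By the same measure the genes most like each detected copy were sought among 12743 detected genes that varied at least 2-fold. Bra024661 was most like Bra004928 (r = 0.997), with a PI of 445, 606 and 273 at 22, 12 and 28 °C in Chiifu and of 366, 941 and 326 in Kenshin, and Bra015196 came next (r = 0.990). Bra015436 and Bra015963 were most like Bra039324 (r = 0.987 and 0.986). Bra016168 and Bra039666 were most like Bra022475 (r = 0.992 and 0.991). Bra039432 was most like Bra004117 (r = 0.995), with a PI of 194, 271 and 323 at the same temperatures in Chiifu and 697, 478 and 569 in Kenshin, followed by Bra022944 (r = 0.992). Between 21 and 91 of the 12743 genes had r over 0.95 with a copy. The tables used here give no names for these 8 genes.

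Genes of light, temperature and gibberellin signalling that the study names by identifier were set beside the integrators. The list has 11 genes, and all were detected, though the *COL2* copy Bra001043 exceeded 500 in only 1 sample and *GA2OX1* in 2. It holds 2 copies of *PHYB*, the red light receptor that also senses temperature, 2 of *PIF4* and 1 of *PIF6*, transcription factors that bind phytochromes, 2 of *HYH*, a homolog of the light regulator *HY5*, 3 *CONSTANS*-like genes (*COL1* and *COL2*) and *GA2OX1*, which inactivates gibberellins. The study picked 6 of them (*HYH*, *COL1*, *COL2* and *GA2OX1*) for their response in these samples, so that their direction is no independent evidence. By LT, 6 of 11 were at least 2-fold higher in Chiifu and 0 lower, beside 5.36% and 5.01% of the detected genes, whereas in Kenshin 1 was higher and 6 were lower, beside 5.8% and 6.99%. The 6 lower ones in Kenshin, like the 6 higher ones in Chiifu, were the 6 genes the study picked. The count and the median of the list in Kenshin thus follow from that choice. The median log2 ratio of the list by LT was 1.35 for Chiifu and -1.01 for Kenshin, against -0.02 and 0.02 for all detected genes. Both detected *SOC1* copies had ratios above 1 by LT in both lines. By warming the median of the list was -1.59 for Chiifu and -1.29 for Kenshin. There 6 and 7 of 11 genes were at least 2-fold lower, beside 10.2% and 6.52% of the detected genes, and 1 and 2 genes at least 2-fold higher. The 6 picked genes were among the lower ones in both lines. With 50 added, *PHYB* Bra001650 (0.509) and *COL2* Bra001043 (0.553) no longer passed by warming in Kenshin, nor *GA2OX1* (0.531) by LT in Kenshin. The *PHYB* copy Bra001650 had an LT ratio of 2.70 in Kenshin and 1.07 in Chiifu, while the other copy, Bra022192, had 0.669 and 0.734. The *PIF4* copy Bra000283 had a warming ratio of 2.58 in Kenshin and 1.26 in Chiifu, and the other copy, Bra037742, 1.34 and 0.808. In the limma fit 0 of the 11 passed by LT, warming or minor warming. An unadjusted limma p under 0.05 was found for 4 by warming, 4 by minor warming and 0 by LT. Of the detected genes, 18.4%, 15.9% and 12.7% had one. The same 4 genes had it by warming and minor warming, *PIF6*, *GA2OX1*, *COL2* Bra021464 and *HYH* Bra022225. All 4 were chosen by the study on these samples, so their count is no independent evidence. Between the lines 1 passed, *PIF6* (Bra007660), with a log2 difference of 1.43 and a limma adjusted p of 0.0390. It did not pass when no intensity minimum was set (limma adjusted p = 0.0813), nor without the Chiifu 28 °C sample. The study chose this gene for its level in Kenshin on these samples.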

How the data were processed

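RNA of the 6 samples was labelled with Cy3 and hybridized to the Br135K array. The authors deposited linear intensity values, 1 per gene and sample, for 41173 genes and 15 control features. The submitters' processing notes name RMA, and the study's methods name background correction by an earlier procedure. The study's text describes repeated experiments and mean values, while the labels give 1 sample per line and temperature, so the values were treated as the authors' means with no replicates. RMA evens out the samples, which can dampen changes shared by most genes.

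Intensities were used as deposited, ratios with nothing added, and calls at 2-fold with an intensity over 500 in at least 1 sample. The limma package (3.58.1, run in R 4.3.3, with moderated variances on log2 intensities, line and temperature as additive terms, 2 residual degrees of freedom, Benjamini-Hochberg adjustment, threshold 0.05) was fitted on 26948 genes after it was tested on simulated data. Python 3.11.15, pandas 2.3.3, numpy 2.4.6 and matplotlib 3.10.9 did the rest. The number of arrays limits the precision.

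All 5 *SOC1* and *FT* copies were named, with the 2 genes most like each detected copy in Pearson correlation of log2(intensity + 50). Members, lists and tests were chosen with earlier results of these data known. Lists of further flowering genes and of shoot markers were to be taken from the RefSeq gene table, which held 1 Bra identifier and none of the members, so both were left out and the tissue was not checked against markers. Alternatives were 50 added, quantile normalization, median scaling, minimums of 250 and 1000 and none, a 3-fold cutoff, no block, and an intensity trend in eBayes. Leaving out the Chiifu 28 °C sample was chosen after seeing the data.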

Additional observations from a re-analysis of the deposited data

Results flagged for a closer look

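In 5 of the 15 combinations of a copy and a temperature comparison, the ratios of the lines lay on opposite sides of 1 (3 of 12 for the detected copies, beside 36.1% over all detected genes). Each direction rests on 1 sample per temperature, and whether the lines differ was not tested. For the *SOC1* copy Bra000393, which was not detected, the ratio by warming was 1.70 in Chiifu and 0.338 in Kenshin, and by minor warming 2.87 and 0.784. For the *FT* copy Bra022475 the ratio by warming was 1.70 in Chiifu and 0.823 in Kenshin. For the *FT* copy Bra004117 the ratio was 1.64 and 0.877 by minor warming, and 1.35 and 0.791 by LT.

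In features outside the gene rows, a signal above that in the control sample was found. The 14 marker control features had a median ratio of Chiifu at 28 °C to Chiifu at 22 °C of 1.76, and the sample enters 4 of the 5 combinations with opposite directions.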

How the results depend on the processing

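Of the 45 ratios of the copies, 44 kept their direction and their side of 2-fold with 50 added, quantile normalization and median scaling, and the exception was Bra000393 by minor warming in Chiifu (log2 0.97 with 50 added). The count of copies detected was 5 at a minimum of 250 and 4 at 1000. With a 3-fold cutoff 3 of the 5 ratios between temperatures were left. None of the limma values of the copies passed an adjusted p of 0.05 under any of the 8 alternatives, with adjusted p between 0.0676 and 0.999. Without the Chiifu 28 °C sample the fitted log2 change by warming was -0.11 for Bra022475 and -0.043 for Bra004117, with the 28 °C level taken from Kenshin alone. Over all genes, the intensity trend in eBayes raised the calls from 0 to 460 by warming, to 3 by minor warming and to 50 by LT, and leaving out the Chiifu 28 °C sample gave 7 by LT. Between the lines 1768 genes were called, 1091 without an intensity minimum and 1087 without the Chiifu 28 °C sample. The cause was not tested. No paired analysis by replicate number was possible because the labels give no replicate numbers and each line and temperature had 1 sample, and the blocks of the limma fits were the line and the temperature. Bra000393, under 500 in all samples, is the copy whose values signal over background limits most.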
